A study of Mus musculus with 12 samples.

Results

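Heat shock proteins in the mouse testis were followed through 10 genes: Hsp90aa1, Hspa2, Hspa1l, Hspa4l, Hspa1a, Hspa1b, Hsph1, Dnajb1, Hspb1 and Hsf1. The genes were chosen by symbol as inducible, general and germ cell heat shock genes, and all 10 were found among the 20718 genes of the expression table and were among the 16296 genes tested. RNA of testes of IRC mice, as the strain is labelled, was sequenced in 12 libraries, 3 in each of 4 groups that differed in the lentivirus injected into the testis. In F0_5251KD the virus carried a mixture of 3 short hairpin RNAs against the long non-coding RNA lncRNA5251 in the LV3 backbone, and in F0_3NC it carried the negative control of LV3. In F0_5251OV the virus carried lncRNA5251 for overexpression in the LV5 backbone, and F0_5NC was LV5 without insert. All 4 groups thus carried an injected virus, and none was untreated. The mice were injected as young males and their testes were taken when adult. The labels name the animals' strain and tissue only, and whether each library stands for 1 animal is not said, so p-values refer to the spread of these libraries, which may be technical. RNA came from whole testis, in which injected virus need not reach every cell, and in such a sample fewer cells of a type and less RNA per cell cannot be told apart. No row of the expression table bears the name lncRNA5251, and its level was not checked here.

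Heat shock proteins are molecular chaperones: they bind unfolded or partly folded proteins, keep them from aggregating and help them to fold. HSP70 proteins bind and release their clients in a cycle driven by ATP, HSP40 proteins bring clients and start the hydrolysis, nucleotide exchange factors such as HSP110 proteins end it, and HSP90 takes over clients such as kinases and steroid receptors that are close to their final fold. In most cells the transcription factor HSF1 switches on the inducible members when unfolded proteins build up, by binding heat shock elements, which are repeats of GAA and its reverse complement TTC in alternating orientation. The testis is kept cooler than the body, and male germ cells carry chaperones of their own. HSPA2 is the HSP70 protein of spermatocytes and is needed to complete meiosis, HSPA1L is made in spermatids, and HSPA4L is an HSP110 protein that is abundant in germ cells.

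The members lie on 6 chromosomes in the GRCm38.p6 annotation of RefSeq, and 3 of them form a cluster. Hspa1a (chr17:34969359-34972156), Hspa1b (chr17:34956429-34959238) and Hspa1l (chr17:34972703-34979228) are neighbours on chromosome 17. Hspa1a and Hspa1l point away from each other, with start sites 547 bases apart, and their annotated spans do not overlap. The gap between Hspa1a and Hspa1b is 10121 bases. Hspa2 (chr12:76403812-76406938) and Hsp90aa1 (chr12:110691036-110696395) are both on chromosome 12, and Hsph1 (chr5:149616843-149636498) and Hspb1 (chr5:135887919-135889563) on chromosome 5. Hspa4l lies at chr3:40744500-40796103, Dnajb1 at chr8:83608175-83612653 and Hsf1 at chr15:76477362-76501155.

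Promoter windows from 250 bases before to 50 bases after the start site were read from RefSeq (GRCm38.p6) for 8 of the 10 members, all but Hsp90aa1 and Hsf1. They were searched for a pair of heat shock units, which is GAANNTTC or TTCNNGAA, each the same on both strands, and for 3 units in a row. A pair was found in the windows of 4 members, Hspa1a, Hspa1b, Hsph1 and Hspb1, and in 15.1% of all 32851 promoter windows, and 3 units in a row were found in the Hsph1 window and in 0.603% of all windows. The windows of Hspa1l, Hspa2, Hspa4l and Dnajb1 held no pair of these letters. Those of Hspa2 and Hspa4l lie inside the annotated spans of the genes, so the upstream ends of these spans were not searched. The windows of 6 members are printed 5′ to 3′ on the strand of the gene, since they set the neighbouring inducible and germ cell HSP70 genes side by side with the 2 other members that hold a pair. Capitals mark the pairs, or the 3 units in a row, where units overlap. The windows cover chr17:34972107-34972406 on the minus strand for Hspa1a, chr17:34959189-34959488 on the minus strand for Hspa1b, chr17:34972453-34972752 on the plus strand for Hspa1l, chr12:76404120-76404419 on the plus strand for Hspa2, chr5:149636266-149636565 on the minus strand for Hsph1 and chr5:135887669-135887968 on the plus strand for Hspb1.
Hspa1a: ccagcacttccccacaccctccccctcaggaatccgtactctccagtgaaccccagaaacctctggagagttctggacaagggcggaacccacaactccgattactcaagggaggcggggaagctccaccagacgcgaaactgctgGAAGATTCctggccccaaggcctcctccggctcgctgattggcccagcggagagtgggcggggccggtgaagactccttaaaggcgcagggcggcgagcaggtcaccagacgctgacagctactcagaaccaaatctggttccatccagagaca
Hspa1b: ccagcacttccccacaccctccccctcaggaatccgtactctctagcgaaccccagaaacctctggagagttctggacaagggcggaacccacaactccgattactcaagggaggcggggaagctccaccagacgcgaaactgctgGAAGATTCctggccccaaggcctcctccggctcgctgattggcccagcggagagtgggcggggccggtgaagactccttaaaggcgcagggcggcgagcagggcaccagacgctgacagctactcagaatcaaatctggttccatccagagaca
Hspa1l: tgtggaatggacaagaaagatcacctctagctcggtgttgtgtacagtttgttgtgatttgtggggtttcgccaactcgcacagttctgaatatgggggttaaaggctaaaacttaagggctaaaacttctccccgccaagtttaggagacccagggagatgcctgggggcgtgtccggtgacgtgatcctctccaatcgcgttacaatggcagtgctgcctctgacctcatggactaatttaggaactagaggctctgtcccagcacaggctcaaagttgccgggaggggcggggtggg
Hspa2: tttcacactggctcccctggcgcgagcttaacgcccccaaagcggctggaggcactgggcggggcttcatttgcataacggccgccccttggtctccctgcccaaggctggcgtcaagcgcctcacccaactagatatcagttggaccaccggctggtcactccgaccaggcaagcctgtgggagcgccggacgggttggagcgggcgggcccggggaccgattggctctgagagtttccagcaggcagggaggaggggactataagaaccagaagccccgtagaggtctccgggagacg
Hsph1: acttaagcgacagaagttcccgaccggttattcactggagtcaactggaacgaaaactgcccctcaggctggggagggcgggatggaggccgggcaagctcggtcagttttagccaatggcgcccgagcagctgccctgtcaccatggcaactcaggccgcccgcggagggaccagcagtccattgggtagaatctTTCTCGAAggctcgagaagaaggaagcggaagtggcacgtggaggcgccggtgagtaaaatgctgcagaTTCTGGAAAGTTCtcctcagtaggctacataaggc
Hspb1: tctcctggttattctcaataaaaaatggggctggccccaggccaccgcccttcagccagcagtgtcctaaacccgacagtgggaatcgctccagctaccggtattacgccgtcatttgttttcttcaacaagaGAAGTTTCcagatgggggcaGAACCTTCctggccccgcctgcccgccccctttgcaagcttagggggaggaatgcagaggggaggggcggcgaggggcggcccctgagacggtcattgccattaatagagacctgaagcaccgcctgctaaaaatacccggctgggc

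The windows of Hspa1a and Hspa1b differed at 4 of 300 bases, so the pair GAAGATTC stood at the same place in both, its first base at -104 from the start site. In Hspb1 the pairs GAAGTTTC and GAACCTTC began at -117 and -97. In the printed window of Hsph1 the pair TTCTCGAA began at -54, and the run TTCTGGAAAGTTC began at 16 bases after the start site. Hsph1 has another annotated start site, from which the same pair began at -33 and the same run at 37. Among the 8 members with a window, the 4 with a pair include both of the lowest genes by level. The 4 without a pair are each higher in level than every member that has one. Hsp90aa1 (866 RPKM) and Hsf1 (14.4 RPKM) had no window. Hspa1a and Hspa1b, with nearly the same window, make up 2 of the 4 with a pair, so the split rests on few genes. It also rests on windows that leave out the upstream ends of the Hspa2 and Hspa4l spans. A match of letters is a description of the window and not a bound site.

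Hsp90aa1 and the germ cell members Hspa2, Hspa1l and Hspa4l were among the most abundant transcripts of the testis. The inducible HSP70 genes Hspa1b and Hspa1a were far lower. Levels were compared between genes in RPKM, that is reads scaled by transcript length and by library total, over the 12 libraries. Hsp90aa1, the stress-inducible cytosolic HSP90, was highest at 866 ± 114 (SD, n = 12), between 793 and 1147, which is at percentile 99.8 of the genes with counts and 0.235% of all counts. Hspa2 followed at 438 ± 21 (n = 12), between 398 and 469. Hspa1l was at 350.2 ± 21 (n = 12), between 309 and 376. The last 2 are the HSP70 genes of meiotic and later germ cells, and both were above percentile 98. Hspa4l was at 328 ± 27.2 (n = 12), between 293 and 388. Dnajb1, the HSP40 partner of inducible HSP70, was at 108 ± 5.9 (n = 12), between 97.2 and 117.

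The remaining members were lower. Hspb1, the small heat shock protein HSP25, which holds unfolded proteins without ATP, was at 21.8 ± 5.16 RPKM (SD, n = 12), between 15.8 and 34.9. Hsph1, the HSP110 protein HSP105, was at 18.2 ± 1.38 (n = 12), between 16.8 and 21.6. Hsf1, the heat shock transcription factor, was at 14.4 ± 1.8 (n = 12), between 10.8 and 16.41. Of the other 9 members, 7 exceeded this regulator in level and 2 did not. Hspa1b was at 3.79 ± 0.739 (n = 12), between 2.51 and 4.76, at percentile 52.3 of the genes with counts. Hspa1a was at 0.888 ± 0.251 (n = 12), between 0.57 and 1.23, at percentile 33.3. Hspa1l and its head-to-head neighbour Hspa1a thus stood near the top and at the end of the order of levels.

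**Figure D1:**
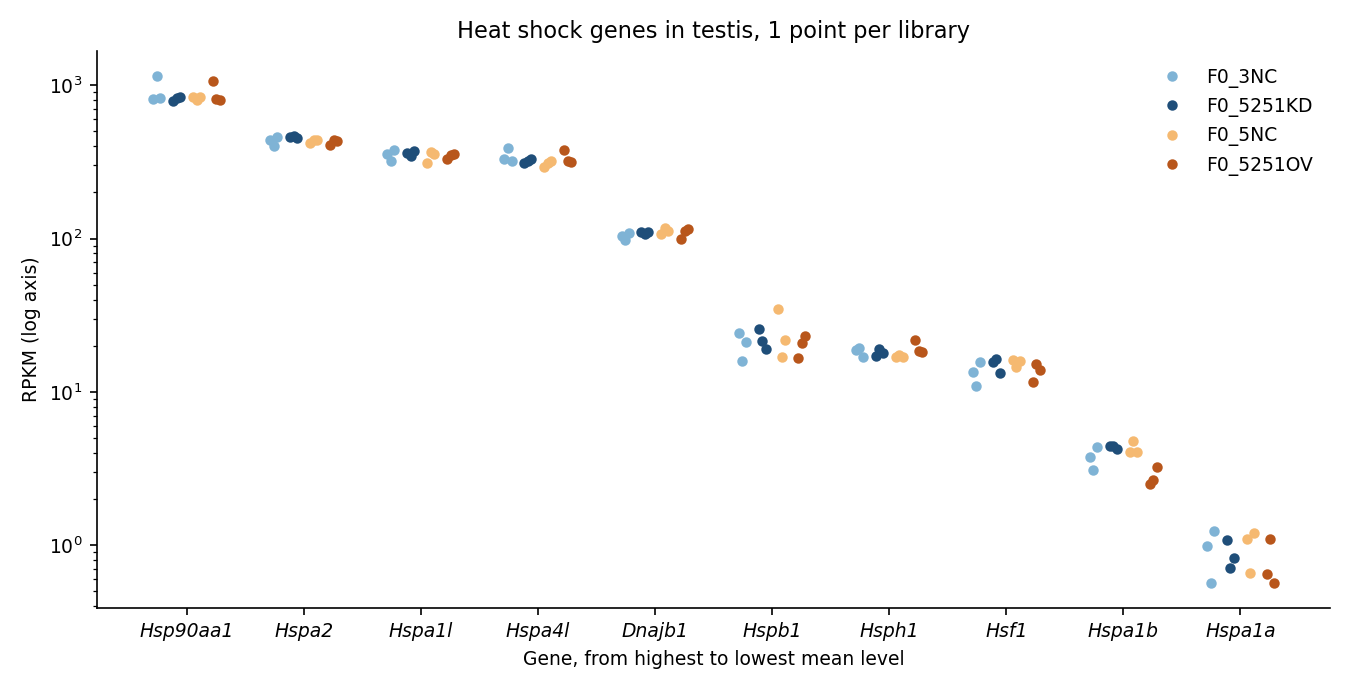
RPKM (log axis) of each of the 10 genes in each of the 12 libraries, 1 point per library, coloured by group. The genes run from Hsp90aa1, between 793 and 1147, to Hspa1a, between 0.57 and 1.23, and their order is nearly the same in every library. Hspa1b is lower in F0_5251OV (2.51 to 3.24) than in F0_5NC (4.02 to 4.76).

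The order of the levels was nearly the same in every library. For 7 of the 9 pairs of neighbours in the order, the higher gene was above the other in 12 of 12 libraries, and their ranges did not overlap. The exceptions were Hspa1l and Hspa4l, with Hspa1l higher in 10 of 12 libraries, and Hspb1 and Hsph1, with Hspb1 higher in 9 of 12. The ranges of those neighbours overlapped, and the difference between them was not tested. The libraries held 15431383 to 16355720 estimated counts, of which Hspa2 took at least 15488 in each library and Hsph1 at least 853. Counts were lower for Hspa1a, with 24.3 to 50.4 estimated counts, for Hspa1b, with 107 to 197, and for Hspb1, with 196 to 419.

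Some of these genes share sequence with copies elsewhere, which makes their counts uncertain, since reads that match several genes have to be shared out. Shares were taken over the distinct 50-base stretches of the longest annotated protein-coding transcript of each member. Hspa1a shared 66.3% with other genes and 58.8% with Hspa1b, and Hspa1b shared 62.3% with Hspa1a. Hspa1l shared 71.4% (with Gm10501), Hsp90aa1 58.5% (mostly with Gm12346) and Hspb1 51.6% (with Hsp25-ps1). For Hspa2, Hsph1 and Hsf1 the share was 0%, and for Hspa4l and Dnajb1 it was under 1%. The levels of Hspa1a and Hspa1b are best read together, and their summed count is given beside the results below.

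The members differed in how much they varied within a group. The SD of log2 CPM (counts scaled to the library total) within groups had a median of 0.182 over all 16296 genes tested and of 0.136 over the 9706 genes with at least 10 CPM. Hsph1 (0.087), Hspa2 (0.094), Dnajb1 (0.11), Hspa4l (0.114) and Hspa1l (0.135) were below both medians. Hsp90aa1 (0.172), Hspa1b (0.196) and Hsf1 (0.197) were near the first of them and above the second. Hspb1 (0.337) and Hspa1a (0.449) were far above both. Hspa1a had only 24.3 to 50.4 estimated counts per library, and its counting noise was not taken out of the SD. The most steady members therefore included the germ cell HSP70 genes, and the least steady were a low inducible gene and a small heat shock protein.

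Whether knockdown of lncRNA5251 altered the heat shock genes was tested in F0_5251KD vs F0_3NC, the control of the same backbone. None of the 10 members passed edgeR's quasi-likelihood test at a Benjamini-Hochberg adjusted p of 0.05, where 0.0245% of all genes tested did. At an unadjusted p under 0.05 the count was also 0 by edgeR, against 4.74% of all genes, and DESeq2 and limma called 0 members. The log2 fold changes lay between -0.19 for Hsp90aa1 and 0.20 for Hspa1b, 6 members being higher and 4 lower, with a median of 0.041 beside -0.004 over all genes.

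Hsp90aa1 had the smallest p of the members in that comparison. It was at 814, 1147 and 824 RPKM in the 3 libraries of F0_3NC and at 793, 826 and 842 in those of F0_5251KD. One control library was far above the other 5, which lay close together, and the groups overlapped. The log2 fold change was -0.19 (SE 0.126, 95% interval -0.46 to 0.082, edgeR adjusted p 0.897), and without F0_3NC replicate 2 and F0_5251OV replicate 1 it was -0.011. Those 2 libraries deviated together, as described further on.

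Hspa1b, one of the inducible HSP70 genes, was at 3.78, 3.10 and 4.34 RPKM in F0_3NC and at 4.41, 4.41 and 4.21 in F0_5251KD. The knockdown libraries lay at the upper end of the control range and overlapped with it. The log2 fold change of 0.20 (SE 0.155, 95% interval -0.13 to 0.54, edgeR adjusted p 0.897) was within the spread, and it was 0.072 without F0_3NC replicate 2 and 0.33 without F0_3NC replicate 3. Hspa1a was at 0.98, 0.57 and 1.23 RPKM in F0_3NC and at 1.08, 0.71 and 0.82 in F0_5251KD, so its values ran through each other. Its log2 fold change was -0.11 (SE 0.331, 95% interval -0.82 to 0.61, edgeR adjusted p 0.963). The summed count of both genes gave 0.15 (edgeR adjusted p 0.898).

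Hsf1, their regulator, was at 13.4, 10.8 and 15.6 RPKM in F0_3NC and at 15.73, 16.41 and 13.28 in F0_5251KD. The lowest value was again F0_3NC replicate 2, and the log2 fold change was 0.19 (SE 0.143, 95% interval -0.12 to 0.50, edgeR adjusted p 0.897). It was 0.052 without that library and 0.33 without F0_3NC replicate 3. The germ cell members were more tightly bounded. Hspa2 was at 438, 398 and 460 RPKM in F0_3NC and at 459, 469 and 450 in F0_5251KD, with a log2 fold change of 0.075 (SE 0.084, 95% interval -0.11 to 0.26, edgeR adjusted p 0.908), which was 0.008 without F0_3NC replicate 2 and 0.13 without F0_3NC replicate 3. Hspa1l was at 356, 319 and 376 RPKM against 364, 343 and 373 (0.025, SE 0.103, 95% interval -0.20 to 0.25, edgeR adjusted p 0.971). Both genes were lowest in the same control library. For the 4 members not yet given (Hspa4l, Hsph1, Dnajb1 and Hspb1), the log2 fold changes in knockdown lay between -0.12 (Hspa4l) and 0.11 (Hspb1), and their intervals all included 0.

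Beside these values, 10 of 11 spermatocyte marker genes were lower in F0_5251KD than in F0_3NC (none passed the test). Their summed levels were 773 to 829 RPKM in F0_5251KD and 816, 964 and 804 in F0_3NC. Only F0_3NC replicate 2 lay above the range of the knockdown libraries. Immediate early genes, which rise within minutes of a stimulus or of handling, had summed levels of 157 to 189 RPKM in F0_5251KD and 93.1 to 96.4 in F0_3NC, and 4 of 14 passed the test as higher. Those 4 were the only genes called among all tested. Their part in the heat shock values was not tested.

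The question of overexpression was put in F0_5251OV vs F0_5NC. Again 0 of the 10 members passed edgeR's quasi-likelihood test at an adjusted p of 0.05, where 0% of all genes did. DESeq2 and limma also called 0 members, while 2 had an unadjusted p under 0.05 in edgeR, Hspa1b and Hsph1, against 8.77% of all genes. Log2 fold changes lay between -0.56 for Hspa1b and 0.19 for Hsph1, with 6 members higher, 4 lower and a median of 0.013 beside -0.002 over all genes. In RPKM the 2 groups did not overlap for 2 of the 10 members, the same Hspa1b and Hsph1, and for 13.1% of all genes tested. In knockdown no member was without overlap, against 10.9% of all genes.

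Hspa1b was at 4.05, 4.76 and 4.02 RPKM in F0_5NC and at 2.51, 2.66 and 3.24 in F0_5251OV. All libraries with the lncRNA5251 virus lay below all libraries with the empty virus. The log2 fold change was -0.56 (SE 0.158, 95% interval -0.90 to -0.22, unadjusted p 0.0035, edgeR adjusted p 0.511), the place of the gene by p being 107 of the 16296 genes tested. The result did not pass after adjustment under any alternative, with values between -0.69 and -0.45 and adjusted p between 0.272 (DESeq2) and 0.987. Hspa1a was at 1.10, 0.66 and 1.20 RPKM in F0_5NC and at 0.65, 1.09 and 0.57 in F0_5251OV, and the groups overlapped (log2 fold change -0.30, SE 0.333, 95% interval -1.02 to 0.42, edgeR adjusted p 0.794). The summed count of both genes was lower in overexpression by a log2 fold change of -0.51 (edgeR adjusted p 0.511).

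Markers of somatic cells were lower in the same comparison as Hspa1b. In F0_5251OV vs F0_5NC all 11 Sertoli cell markers and all 7 Leydig cell markers were lower, with medians of -0.25 and -0.22, and none passed the test. Their summed levels were 421 to 522 RPKM against 540 to 862 for Sertoli cells and 1742 to 2525 against 2149 to 4460 for Leydig cells. No marker of either list was at 0. In F0_3NC vs F0_5NC all 11 Sertoli cell markers were lower too, with a median of -0.19, and none passed. Their sum in F0_3NC was 406 to 548 RPKM. There the log2 fold change of Hspa1b was -0.16 and its groups overlapped. Of the 7 Leydig cell markers, 3 were higher and 4 lower between these controls. Library F0_5NC replicate 1 was highest in both sums, and without it the log2 fold change of Hspa1b was -0.64 (edgeR adjusted p 0.987). The part of these cell types in the Hspa1b values was not tested.

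Hsph1 was at 16.99, 17.33 and 16.78 RPKM in F0_5NC and at 21.6, 18.4 and 18.1 in F0_5251OV. The overexpression libraries were all above the controls, with replicate 1 well above the other 2. The log2 fold change was 0.19 (SE 0.082, 95% interval 0.016 to 0.37, unadjusted p 0.035, edgeR adjusted p 0.552), and it was 0.13 without F0_5251OV replicate 1. Hspa4l, the other HSP110 gene among the members, was at 293, 310 and 319 RPKM in F0_5NC and at 377, 320 and 314 in F0_5251OV. Its groups overlapped, with a log2 fold change of 0.17 (SE 0.094, 95% interval -0.028 to 0.37, edgeR adjusted p 0.595) that was 0.097 without the same library and 0.10 without F0_5NC replicate 1. Hsp90aa1 was at 835, 799 and 832 RPKM against 1064, 810 and 803. Here the excess was in 1 library alone, and the log2 fold change of 0.16 (SE 0.126, 95% interval -0.11 to 0.43, edgeR adjusted p 0.706) was 0.032 without it.

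The other members stayed closer together. Hspa2 was at 423, 439 and 436 RPKM in F0_5NC and at 407, 441 and 434 in F0_5251OV (log2 fold change 0.027, SE 0.084, 95% interval -0.15 to 0.21, edgeR adjusted p 0.939). Dnajb1 was at 107, 117 and 112 RPKM against 99.7, 111 and 116, with a 95% interval of -0.19 to 0.19. These bounds for Hspa2 and Dnajb1 leave out changes much beyond 0.2 on the log2 scale in either direction. Hsf1 was at 16.1, 14.4 and 15.8 RPKM against 11.6, 15.2 and 13.9 (-0.14, SE 0.143, 95% interval -0.45 to 0.17, edgeR adjusted p 0.779), and the value was -0.023 without F0_5251OV replicate 1. Hspb1 was at 34.9, 16.8 and 21.6 RPKM against 16.6, 20.7 and 23.2, and a single control library was above all others (-0.22, SE 0.228, 95% interval -0.71 to 0.27, edgeR adjusted p 0.776). Without that library, F0_5NC replicate 1, the log2 fold change of Hspb1 was 0.068.

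**Figure D2:**
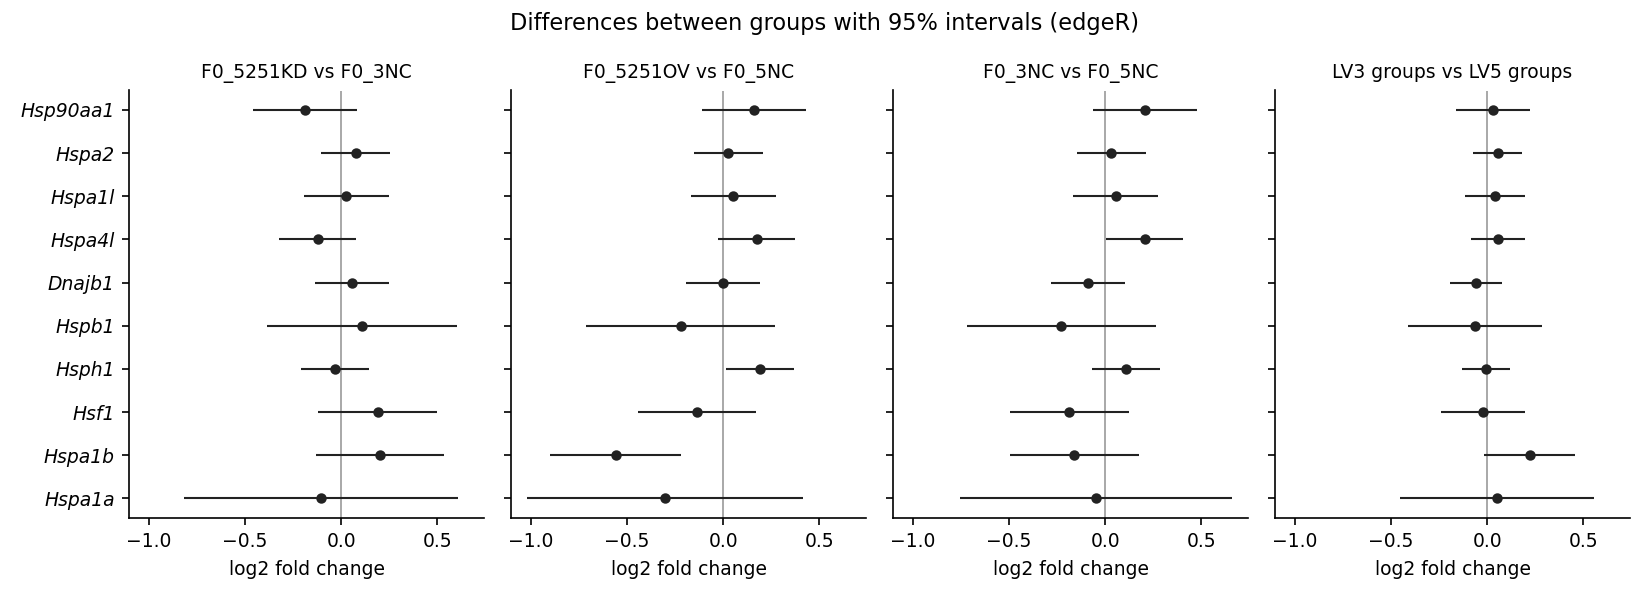
Log2 fold change of each gene in the 4 comparisons (points) with its 95% interval from edgeR (lines), genes ordered by level. Most intervals cross 0, those of Hspa1b (-0.90 to -0.22) and Hsph1 (0.016 to 0.37) in F0_5251OV vs F0_5NC and of Hspa4l in F0_3NC vs F0_5NC do not, and no adjusted p was under 0.05.

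The 2 control viruses were compared in F0_3NC vs F0_5NC, where lncRNA5251 was not targeted. None of the 10 members passed edgeR's quasi-likelihood test at an adjusted p of 0.05, where 0.331% of all genes did, and DESeq2 and limma called 0 as well. Hspa4l alone had an unadjusted p under 0.05, as did 11.9% of all genes, so 1 of 10 members is a share near that of all genes. It was at 331, 388 and 319 RPKM in F0_3NC and the values above in F0_5NC. Its log2 fold change was 0.20 (SE 0.094, 95% interval 0.003 to 0.41, unadjusted p 0.047, edgeR adjusted p 0.416), and it was 0.13 without F0_3NC replicate 2 and 0.13 without F0_5NC replicate 1. No member was without overlap between the controls, against 15.9% of all genes. The values ran from -0.23 for Hspb1 to 0.21 for Hsp90aa1, 5 members higher and 5 lower. Differences between the controls thus reached 0.23 in size, and with knockdown or overexpression only Hspa1b (-0.56) and Hspa1a (-0.30), both in overexpression, were larger. The 3 comparisons share F0_3NC or F0_5NC, so their values are not independent.

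For all LV3 libraries against all LV5 libraries the mean of F0_3NC and F0_5251KD was set against that of F0_5NC and F0_5251OV. In this comparison the backbone cannot be told apart from a batch of the same libraries. None of the members passed edgeR's quasi-likelihood test at an adjusted p of 0.05, where 0.706% of all genes did, none had an unadjusted p under 0.05, against 6.35% of all genes, and DESeq2 and limma called 0. None was without overlap between the 6 and 6 libraries, against 0.693% of all genes. The 10 values lay between -0.063 (Hspb1) and 0.22 (Hspa1b), the last with a 95% interval of -0.018 to 0.46 and an edgeR adjusted p of 0.841. Of the 14 immediate early genes, 13 passed the test as higher in LV3 libraries, and both epididymal markers tested passed as lower. The summed epididymal level was 1.11 to 7.39 RPKM in LV3 libraries and 3.67 to 101 in LV5 libraries, and the part of either list in the heat shock values was not tested.

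Finally, the difference between the effects of knockdown and of overexpression was tested directly. No member passed edgeR's quasi-likelihood test at an adjusted p of 0.05, where 0% of all genes did. An unadjusted p under 0.05 was found for 2 members and for 11.3% of all genes, and DESeq2 called 0 members at a smallest adjusted p of 0.212. Hspa1b had the smallest p (0.00425, edgeR adjusted p 0.394), its value in knockdown being higher than that in overexpression by 0.76 on the log2 scale. Hspa1b was at 2.80 ± 0.386 RPKM in F0_5251OV, 4.28 ± 0.419 in F0_5NC, 3.74 ± 0.621 in F0_3NC and 4.34 ± 0.115 in F0_5251KD (SD, n = 3 in each). Only the overexpression group stood below, and 1 of its libraries, at 3.24, was above the lowest of F0_3NC, at 3.10.

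**Figure D3:**
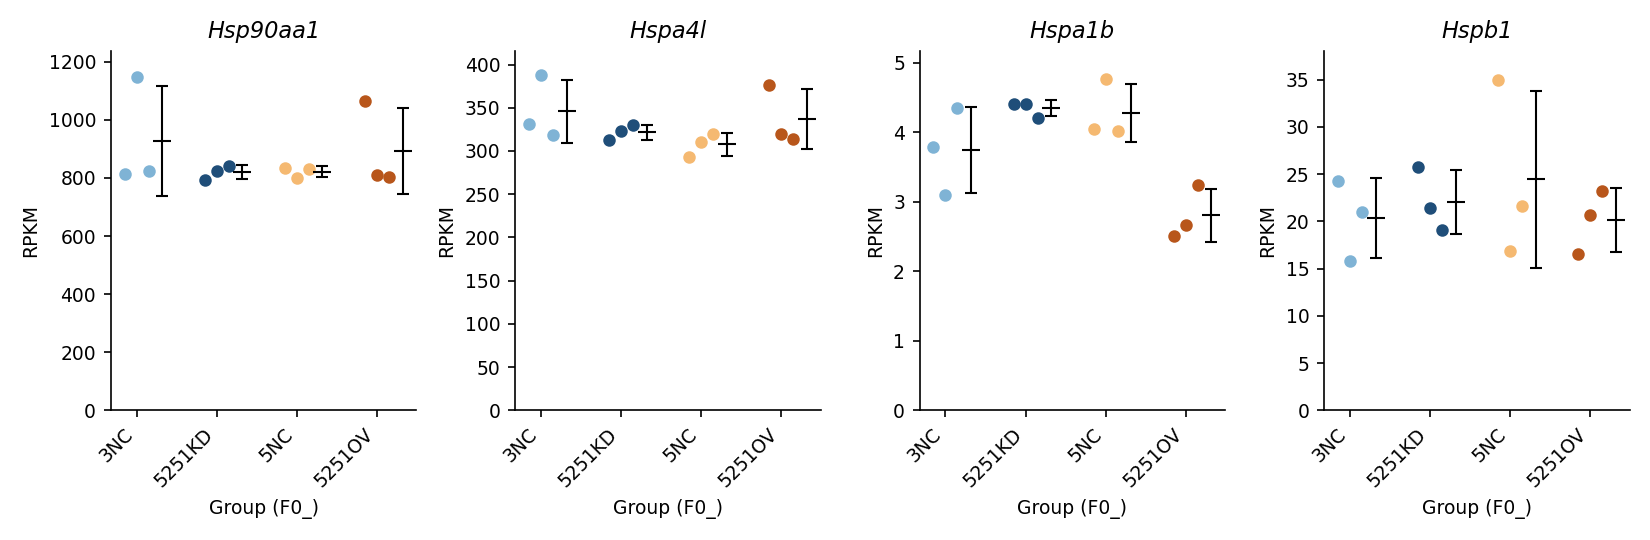
RPKM of Hsp90aa1, Hspa4l, Hspa1b and Hspb1 in each library, by group, with the group mean and SD (n = 3) beside the points. F0_3NC replicate 2 and F0_5251OV replicate 1 carry the high values of Hsp90aa1 (1147 and 1064) and Hspa4l (388 and 377), Hspa1b is lowest in F0_5251OV, and F0_5NC replicate 1 carries the high value of Hspb1 (34.9).

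In the heat shock genes, 2 libraries of different groups stood apart from their own groups alike, F0_3NC replicate 2 and F0_5251OV replicate 1. Their deviations from their group means, over all genes tested, correlated at 0.381, the highest of 54 pairs of libraries of different groups, with the next at 0.147. All 10 members deviated in the same direction in both libraries, as did 76.4% of all genes tested. Hsp90aa1 was above its group mean by 0.30 and 0.24 in log2 CPM. Hspa4l was above by 0.15 and 0.15, and Hsph1 by 0.043 and 0.12. The HSP90 gene and both HSP110 genes were thus above, while the other 7 members were below.

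Among the 7 that were below, Hsf1 deviated by -0.30 in F0_3NC replicate 2 and by -0.25 in F0_5251OV replicate 1. Hspb1 deviated by -0.37 and -0.32, and Hspa1b by -0.28 and -0.18. The germ cell gene Hspa2 deviated by -0.14 and -0.098. Chaperones of one system therefore went in opposite directions in the same library. Over the 12 libraries the deviations of Hsp90aa1 had a Pearson r of 0.891 with those of Hspa4l and of -0.837 with those of Hsf1. These are descriptions over libraries that share the 2 above.

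Germ cell markers moved with these 2 libraries as well. The summed level of 11 spermatocyte markers was 940 and 964 RPKM in them and 752 to 839 in the other 10 libraries, with 8 of the 11 genes above their group mean in both libraries and 1 below in both. The sum of 8 elongated spermatid markers was 36800 and 39410 against 38610 to 45960, with 7 genes below their group mean in both libraries and 1 above in both. The Sertoli cell sum, over 11 markers, was 406 and 421 against 485 to 862. Of these 11 genes, 6 were below their group mean in both libraries and 3 were above in both. Round spermatid markers (10 genes, 1543 and 1585 against 1472 to 1698) were within the range of the other libraries. No marker of these 4 lists was at 0 in any library. The part of the cell makeup in the heat shock values was not tested.

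Without these 2 libraries the groups were closer together in Hsp90aa1. Its log2 fold change was then -0.011 in knockdown, 0.018 in overexpression and 0.025 between controls, against -0.19, 0.16 and 0.21 with them. Hspa1b in overexpression was -0.49 (edgeR adjusted p 0.586) without them, beside -0.56 with them. No member passed in any comparison. This alternative was chosen after the libraries had been seen to deviate.

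**Figure D4:**
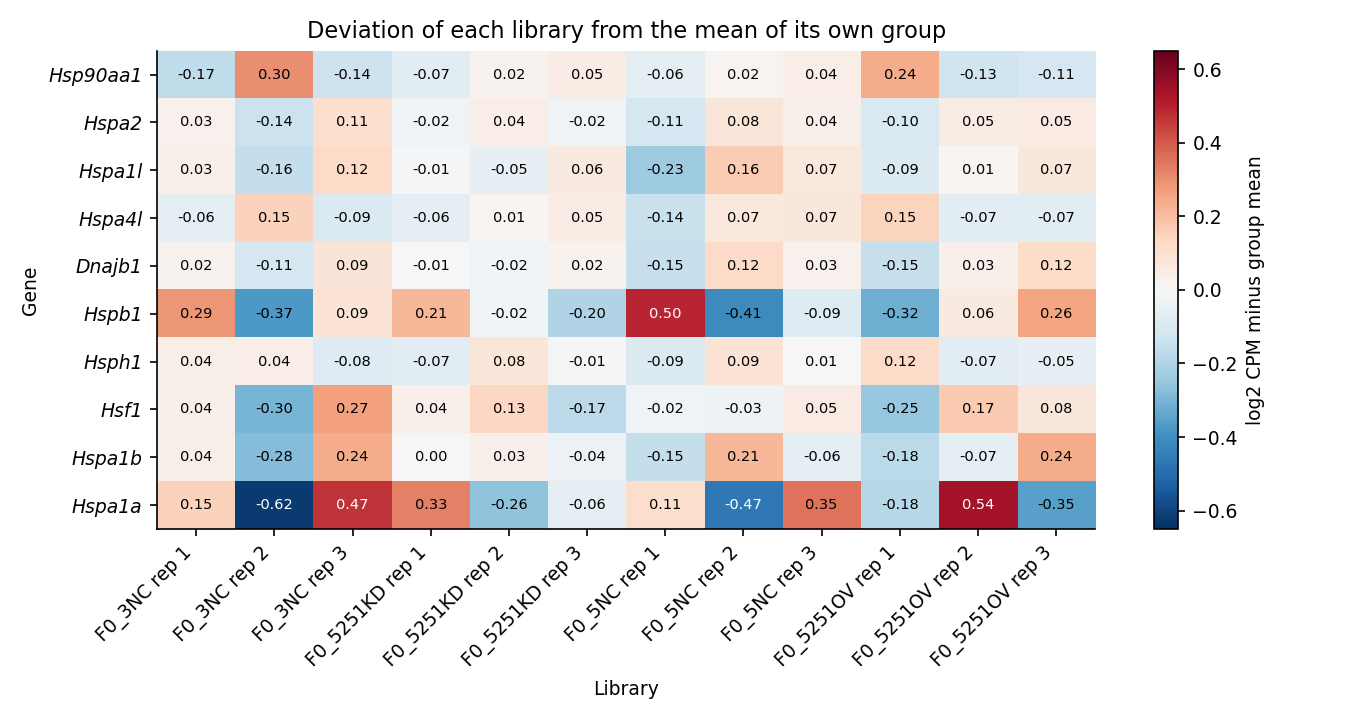
Deviation of each library from the mean of its own group in log2 CPM (colour and number), genes in rows by level and libraries in columns. F0_3NC replicate 2 and F0_5251OV replicate 1 share a column pattern, positive for Hsp90aa1 (0.30 and 0.24) and Hspa4l (0.15 and 0.15) and negative for 7 genes, and F0_5NC replicate 1 stands out in Hspb1 (0.50).

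Another library, F0_5NC replicate 1, stood apart in other genes. It held the highest Hspb1 level of the 12 (34.9 RPKM), with a deviation of 0.50 in log2 CPM, and the lowest Hspa1l (309) and Hspa4l (293). Its Sertoli and Leydig cell marker sums, 862 and 4460 RPKM, were the highest of the 12. The genes whose within-group deviations were most like those of Hspb1, among 15166 genes with at least 1 CPM over the 12 libraries, were Igfbp7 (Pearson r 0.972), Polr2l (0.963) and Snd1 (0.957). For Hspa2 they were Spata33 (0.983), Tpi1 (0.982) and 1700001C02Rik (0.981). For Hspa1a, the member with the largest SD within groups, they were Dnase2a (0.935), Fam241b (0.933) and Tm2d3 (0.923). Hspa1b, although close to Hspa1a in sequence, had an r of 0.085 with it. Hspa1a had 24.3 to 50.4 counts per library and shares reads with Hspa1b, so this r says little on whether the genes vary alike.

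The wider chaperone system was described by 10 lists, which hold 121 genes in all, members included, of which 117 were tested. The 4 below the filter on low counts were Hsf4, Hspb2, Hspb3 and Cryaa. Only 1 of the 117 passed the test in any of the 4 comparisons between groups, in LV3 vs LV5 libraries, where 0.706% of all genes passed, so the share in the lists is near that of all genes. It was Atf4, the transcription factor through which cells raise amino acid supply and chaperones under stress of translation or of the endoplasmic reticulum. Atf4 was at 30.9, 30.1 and 30.9 RPKM in F0_3NC and 36.2, 30.7 and 32.8 in F0_5251KD. It was at 27.07, 24.95 and 23.24 in F0_5NC and 25.3, 25.5 and 23.4 in F0_5251OV, so all LV3 libraries were above all LV5 libraries. The log2 fold change was 0.37 (SE 0.055, edgeR adjusted p 0.00451), and the adjusted p was between 2.54e-06 and 0.021 over the alternatives.

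HSF1 target genes, a list of 27 genes that includes members such as Hspa1b, Dnajb1 and Hsph1, had 0 calls in each comparison. In knockdown 13 were higher and 14 lower with a median of 0 beside -0.004 over all genes, and 0 had an unadjusted p under 0.05. In overexpression 10 were higher and 17 lower with a median of -0.030, and 2 had an unadjusted p under 0.05. Hspa8, the constitutive HSP70 of the cytosol, had the smallest p of this list in LV3 vs LV5 libraries (log2 fold change 0.24, edgeR adjusted p 0.185). Bag3, a nucleotide exchange factor and a target of HSF1, was at 0.25 there (edgeR adjusted p 0.467). The heat shock factors themselves (7 tested) had 0 calls, and Hsfy2, a factor of germ cells, was at 98.2 RPKM over the 12 libraries, above Hsf5 (70.6), Hsf2 (25.5) and Hsf1 (14.4).

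The HSP70 family (15 genes) and HSP90 with its co-chaperones (19 genes) had 0 calls in each comparison, with medians between -0.031 and 0.070 and between -0.018 and 0.018. Of the constitutive cytosolic proteins, Hspa8 and Hsp90ab1 were both at 139 RPKM, below the germ cell HSP70 genes Hspa2 and Hspa1l and the inducible Hsp90aa1. Hspa5, the HSP70 of the endoplasmic reticulum, was at 233. Among 27 HSP40 genes, 21 were lower in knockdown, 22 higher in overexpression and 22 higher in F0_3NC than in F0_5NC. Among 11 chaperonin genes, the subunits of folding chambers, 10 were lower in knockdown, 9 higher in overexpression and 9 higher in F0_3NC. No gene of either list passed, and the medians were between -0.060 and 0.083 for HSP40 and between -0.080 and 0.10 for chaperonins. Over all genes tested the medians were -0.004 in knockdown, -0.002 in overexpression and 0 between controls. These 3 comparisons share F0_3NC or F0_5NC, so the counts are not independent. F0_3NC replicate 2 and F0_5251OV replicate 1, which deviated together, are among their libraries. The spermatocyte markers had medians of -0.14, 0.13 and 0.18 in the same 3 comparisons, and their part in the values of these lists was not tested.

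The 9 genes for nucleotide exchange and scaffold proteins and the 8 tested small heat shock proteins had 0 calls. Among the small heat shock proteins Hspb7 had the smallest p in overexpression (edgeR adjusted p 0.49). Of 17 chaperone genes that are mainly used in germ cells, 16 were higher and 1 lower in overexpression with a median of 0.12. In knockdown 8 were higher and 9 lower with a median of -0.039. Between controls, in F0_3NC vs F0_5NC, 13 were higher and 4 lower with a median of 0.071, so most were higher there too. Both comparisons are made against F0_5NC, so their directions are not independent. None of the 17 passed in any comparison. All 10 round spermatid markers were higher in overexpression as well (median 0.086, none passed). In F0_3NC vs F0_5NC 9 of these 10 markers were higher (median 0.049, none passed). The part of these markers in the values of the chaperone list was not tested. In level the list of 17 germ cell chaperones held Odf1 at 1430, Dnajb3 at 800 and Hspb9 at 724 RPKM over the 12 libraries, beside Hspa2 and Hspa1l. Hsp90aa1, at 866, which is not in this list, was between Odf1 and Dnajb3. Odf1, which is also among the elongated spermatid markers, is a small heat shock protein that forms part of the sperm tail.

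**Figure D5:**
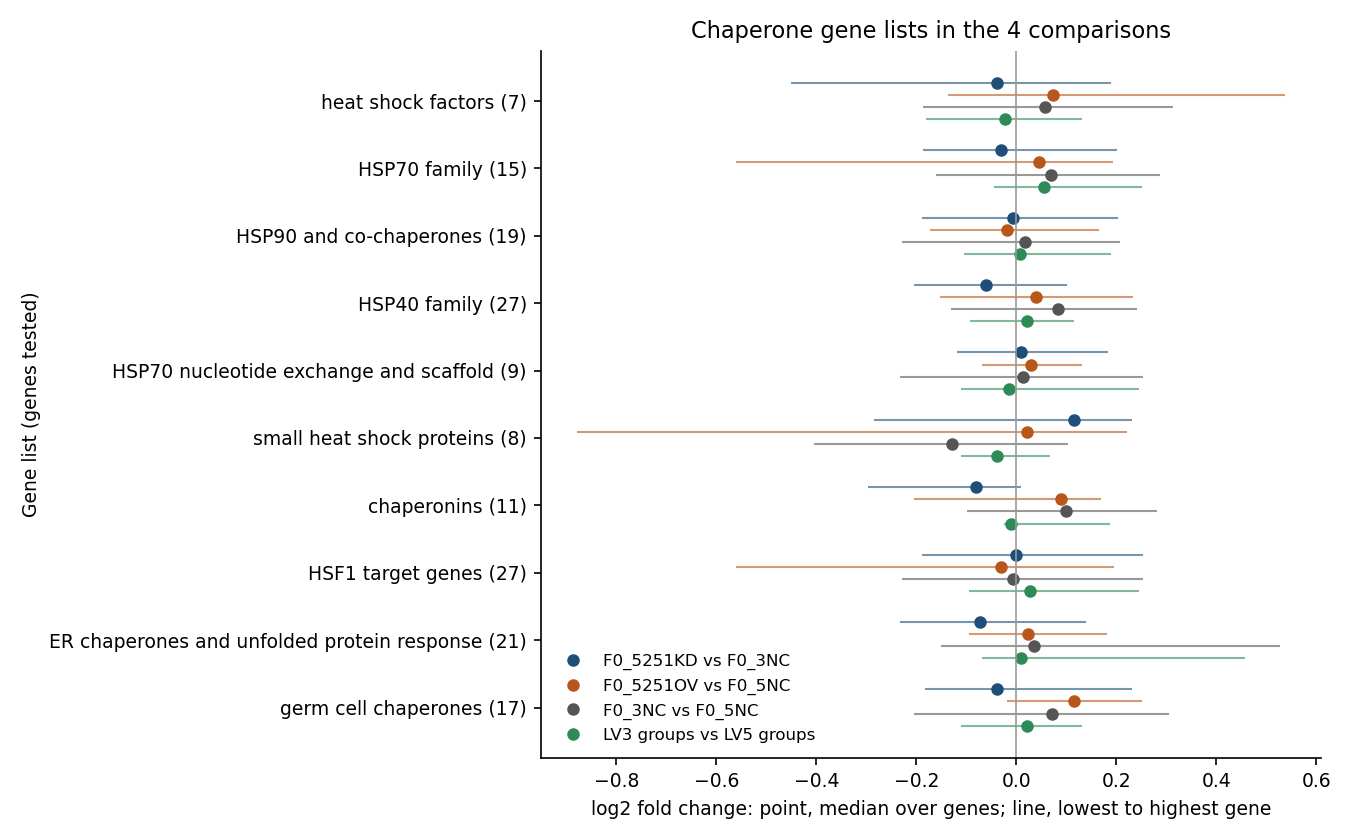
Log2 fold changes of 10 chaperone lists in the 4 comparisons, as the median over the tested genes of a list (points) and the lowest to the highest gene (lines). The medians lie between -0.13 and 0.12, and the lowest single value, -0.88, is that of Hspb8 in F0_5251OV vs F0_5NC, which did not pass the test.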

How the data were processed

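The study's methods describe testis messenger RNA enriched with oligo(dT) beads, cDNA made with random hexamers, Illumina sequencing and alignment with SOAPaligner, and the labels name mm10 as the build. The methods name no strand-marking step, so reads of both strands count alike. The authors deposited 1 table with an estimated count and an RPKM value per gene and library. They were rounded to whole numbers here, since 12% of the estimated counts had a fractional part (tolerance 1e-06), which fits a sharing out of reads between similar genes. The RPKM values deposited by the authors are scaled by transcript length and library total, with the unit named after the study's methods since the table's header gives none. A further 18 value columns belong to no sample of the series and were not used.

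The members, lists and tests were chosen with earlier results of these data known. All 12 libraries entered 1 quasi-likelihood fit of edgeR 4.0.16 (R 4.3.3) with 4 group means and 8 residual degrees of freedom, after filterByExpr and TMM scaling (factors of 0.97 to 1.078). Tests were two-sided, with Benjamini-Hochberg adjustment over all genes tested and a threshold of 0.05. The study's test pools the libraries of a group, so it was not used. Replicates of a group differed beyond sampling noise (chi-square per gene 3.73 to 20.2). Alternatives were DESeq2 1.42.0, limma 3.58.1 on log2(RPKM + 1) and log2(RPKM + 0.1), upper-quartile scaling, other filters, the replicate number as a block, 2 groups alone and each library left out. The scripts were tested on simulated data. Named were all members, other list genes past the threshold, and the 3 genes most alike in deviation for the most variable member, Hspa2 and Hspb1. List genes named beside these, as examples of level or of the smallest p, were chosen after their values were seen. Coordinates and promoter windows came from RefSeq (GRCm38.p6), and shared 50-base stretches were counted over GENCODE transcripts. Protein sequences were not analysed here.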

Additional observations from a re-analysis of the deposited data

How the results depend on the processing

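Under every alternative run, 0 of the 10 members passed in each of the 5 tests, and of 674 values of single genes, 631 did not change sign or side of the threshold, 43 changed sign with both values short of the threshold, and none crossed it. In the count over the chaperone lists, LV3 vs LV5 libraries gave 1 gene (Atf4) and between 1 and 2 with each library left out, the 2 being Atf4 and Hspa8 without F0_5NC replicate 1. Sign changes without F0_3NC replicate 2 and F0_5251OV replicate 1 were Hspa1l -0.037, Hsph1 0.002 and Hspb1 -0.045 in knockdown, Hspa1a 0.196 between controls and Hsph1 0.014 in LV3 vs LV5. With limma, Hspa2 was -0.018 in overexpression and -0.004 between controls. Leaving out each library, values crossed 0 in these ranges. In knockdown they were -0.049 to 0.09 for Hspa1l, -0.057 to 0.257 for Hspb1 and -0.365 to 0.151 for Hspa1a. In overexpression they were -0.057 to 0.135 for Hspa1l, -0.03 to 0.074 for Hspa2 and -0.407 to 0.068 for Hspb1, and for Dnajb1, whose value of 0.000 had no sign to change, -0.074 to 0.072. Between controls they were -0.029 to 0.1 for Hspa2, -0.304 to 0.215 for Hspa1a, -0.057 to 0.137 for Hspa1l and -0.414 to 0.059 for Hspb1. In LV3 vs LV5 they were -0.053 to 0.096 for Hsp90aa1, -0.156 to 0.085 for Hspb1, -0.094 to 0.045 for Hsf1, -0.078 to 0.215 for Hspa1a, -0.027 to 0.027 for Hsph1 and -0.011 to 0.083 for Hspa1l. The cause of these sign changes was not tested. Deviations of same-numbered samples had correlations of -0.221 to 0.146. The labels do not say what the numbers stand for, so whether they pair the samples is not known. With the replicate block 0 members passed and 1 list gene in LV3 vs LV5, and over all genes the calls were 2, 0, 50 and 89 in knockdown, overexpression, controls and LV3 vs LV5 against 4, 0, 54 and 115 without it, while DESeq2 gave 20, 30, 138 and 160. The depth limits Hspa1a most, with 24.3 to 50.4 counts per library.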
